A study of Drosophila melanogaster with 2 samples.

Results

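The genes described here encode 9 heterochromatin proteins of Drosophila melanogaster: Su(var)205, HP1b, HP1c, Su(var)3-7, Su(var)2-HP2, Su(var)3-9, egg, wde and G9a. They were taken by name from the 13945 protein-coding genes annotated on 6 chromosome arms, and their names matched 9 annotated genes. The measurement was ChIP-seq, in which DNA bound by a protein is precipitated and sequenced, here for the zinc finger protein Sry-delta. It reports where that protein lay on DNA, not how much RNA or protein a gene makes. Whole embryos of mixed sex, 0 to 24 h old, came from a transgenic line with GFP fused to the C-terminus of Sry-delta, and an antibody to GFP was used. All samples formed 1 group of 2 biological replicates, numbered 3 and 4 in the labels, so no contrast between groups exists. The endogenous Sry-delta gene is not stated to be absent from this line, and whole embryos mix all cell types.

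Heterochromatin is compact, gene-poor chromatin in which lysine 9 of histone H3 (H3K9) is methylated. Methyltransferases such as Su(var)3-9, Eggless and G9a place the mark, and HP1 proteins bind the methylated lysine through their chromodomain and recruit further partners. In flies, loss of several of these proteins suppresses position-effect variegation, the patchy silencing of genes placed next to heterochromatin, which gave the Su(var) genes their name.

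A promoter peak below means a summit within 500 bp of any annotated start of a gene. The optimal set of 6318 peaks holds those the authors kept as reproducible, and 75.7% of its summits lay within 500 bp of a coding start. Of the 9 genes, 7 had a promoter peak in it, where 39.0% of all coding genes did. The exact 95% interval for the 9 genes was 40.0% to 97.2%, counting error only. The 9 genes were chosen with earlier results of these data known, so the interval is no test against 39.0%. Su(var)2-HP2 and wde had no promoter peak in the optimal set. Each had an optimal peak with its summit 612 or 628 bp upstream of its start, respectively, beside the gene transcribed away from it. Such a divergent start lay no more than 1000 bp away for 8 of the 9 genes, all but egg, against 36.2% of coding genes. Among coding genes with a divergent start that near, 68.9% had an optimal promoter peak, and among the other coding genes 22.1% did.

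The stretches between the paired start sites are shown for the members whose promoter summit lay between or beside them, because they hold the DNA under the summit or, for HP1c, next to it. Each is written 5′ to 3′ along the transcription of the heterochromatin gene, from the Release 6 (dm6) genome. Capitals mark CGATA, read on either strand, and ATCGAT, which reads the same on both strands. TATCGATA, the DNA replication-related element (DRE) bound by DREF and by the insulator protein BEAF-32, holds CGATA on both strands and ATCGAT, and appears whole in capitals. The first sequence is the 121 bp between CG3038 and G9a (chrX:245857-245977, plus strand). The second lies between Set and Su(var)3-9 (chr3R:15263459-15263551, minus strand) and the third between Ssb-c31a and Su(var)205 (chr2L:8211123-8211346, minus strand). The fourth is a stretch of 30 bp in the HP1b 5′ UTR (chrX:9081199-9081228, plus strand), placed around the CGATA that lies 12 bp from the summit. The HP1b summit itself, at 9081201, lies near the 5′ end of this stretch. The others lie between vret and HP1c (chr3R:22745582-22745619, plus strand) and upstream of Su(var)3-7, towards Ravus (chr3R:13264064-13264363, plus strand).
G9a: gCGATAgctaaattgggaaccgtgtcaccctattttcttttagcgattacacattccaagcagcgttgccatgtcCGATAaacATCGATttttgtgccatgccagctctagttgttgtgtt
Su(var)3-9: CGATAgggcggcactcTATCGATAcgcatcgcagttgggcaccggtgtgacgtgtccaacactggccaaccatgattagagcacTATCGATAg
Su(var)205: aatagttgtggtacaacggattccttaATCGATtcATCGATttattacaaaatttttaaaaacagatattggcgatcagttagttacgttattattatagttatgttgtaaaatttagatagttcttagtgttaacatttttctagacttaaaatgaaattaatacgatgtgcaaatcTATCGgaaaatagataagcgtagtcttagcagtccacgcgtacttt
HP1b: tggccaagagagCGATAgttgccgatggcg
HP1c: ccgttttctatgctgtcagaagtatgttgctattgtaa
Su(var)3-7: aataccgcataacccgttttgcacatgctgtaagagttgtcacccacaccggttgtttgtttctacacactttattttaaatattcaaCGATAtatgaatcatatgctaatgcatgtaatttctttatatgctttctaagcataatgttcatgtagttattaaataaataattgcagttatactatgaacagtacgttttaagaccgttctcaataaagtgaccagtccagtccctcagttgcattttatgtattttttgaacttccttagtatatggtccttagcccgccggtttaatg

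These stretches differed in what they held. The 93 bp at Su(var)3-9 held 2 whole DREs and 5 copies of CGATA counted over both strands, and the 224 bp at Su(var)205 held 2 copies of ATCGAT and 1 of CGATA. The 121 bp at G9a held 2 copies of CGATA and 1 of ATCGAT, the 300 bp at Su(var)3-7 held 1 copy of CGATA, and the 38 bp at HP1c held none of these words.

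The HP1 genes all had an optimal promoter peak, and Su(var)205 had the highest of these. Su(var)205 (FBgn0003607, chromosome 2L, 8209626 to 8211122, minus strand) encodes HP1a, the HP1 protein concentrated in pericentric heterochromatin. Its peak (8210962 to 8211552) had a deposited signal of 413 in replicate 3, where it ranked 923 of 30000 peaks, and 490 in replicate 4, where it ranked 1044. In the optimal set its signal was 895, rank 977 of 6318. Signals have 1 scale per list, so the ranks are what can be set side by side, and both replicates put this peak in nearly the same place. The summit at 8211298 lay outside both genes, 176 bp from the start of Su(var)205 and 49 bp from that of Ssb-c31a. A weaker summit (8211493 in replicate 3, 8211502 in the pooled list), within the coding sequence of Ssb-c31a, had a signal of 95.2 in replicate 3 and 58.0 in the pooled list, and no such summit was listed in replicate 4.

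HP1b (FBgn0030082, chromosome X, 9081063 to 9082746, plus strand) encodes an HP1 protein also found in euchromatin. The signal of its peak (9080865 to 9081463) was 211 in replicate 3, rank 1718, and 388 in replicate 4, rank 1300. The optimal signal was 591, rank 1444. HP1b has start sites at 9081063 and 9081254, and the summit at 9081201 lay between them in the 5′ UTR, 53 bp from the inner start. The divergent gene CG7246 starts 6 bp from the outer start of HP1b and 144 bp from the summit. At the other end of the gene, replicate 4 listed a summit in the HP1b 3′ UTR (9082729, signal 188, rank 2563). This summit lay 202 bp from the nearest start of another coding gene, APC4, so by the 500 bp rule it is a promoter summit of APC4. In the optimal set the summit of the overlapping peak lay 5 bp past the end of HP1b (9082751, signal 308, rank 2554) and in replicate 3 it lay 42 bp past it (9082788, signal 128, rank 2644). That peak therefore counted as inside the gene in 1 replicate list and outside it in the other lists.

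HP1c (FBgn0039019, chromosome 3R, 22745620 to 22746605, plus strand) encodes an HP1 protein known mainly from euchromatin. Its peak (22745393 to 22745876) had a signal of 73.2 in replicate 3, rank 4204, and 71.2 in replicate 4, rank 5805. In the optimal set the signal was 141 and the rank 4846, so 76.7% of optimal peaks ranked as high or higher. The summit at 22745635 lay 15 bp inside the 5′ UTR of HP1c and 54 bp from the start of vret, which encodes a Tudor domain protein of the piRNA pathway. In rank, the HP1 genes fell in the order Su(var)205, HP1b, HP1c in both replicate lists.

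**Figure D1:**
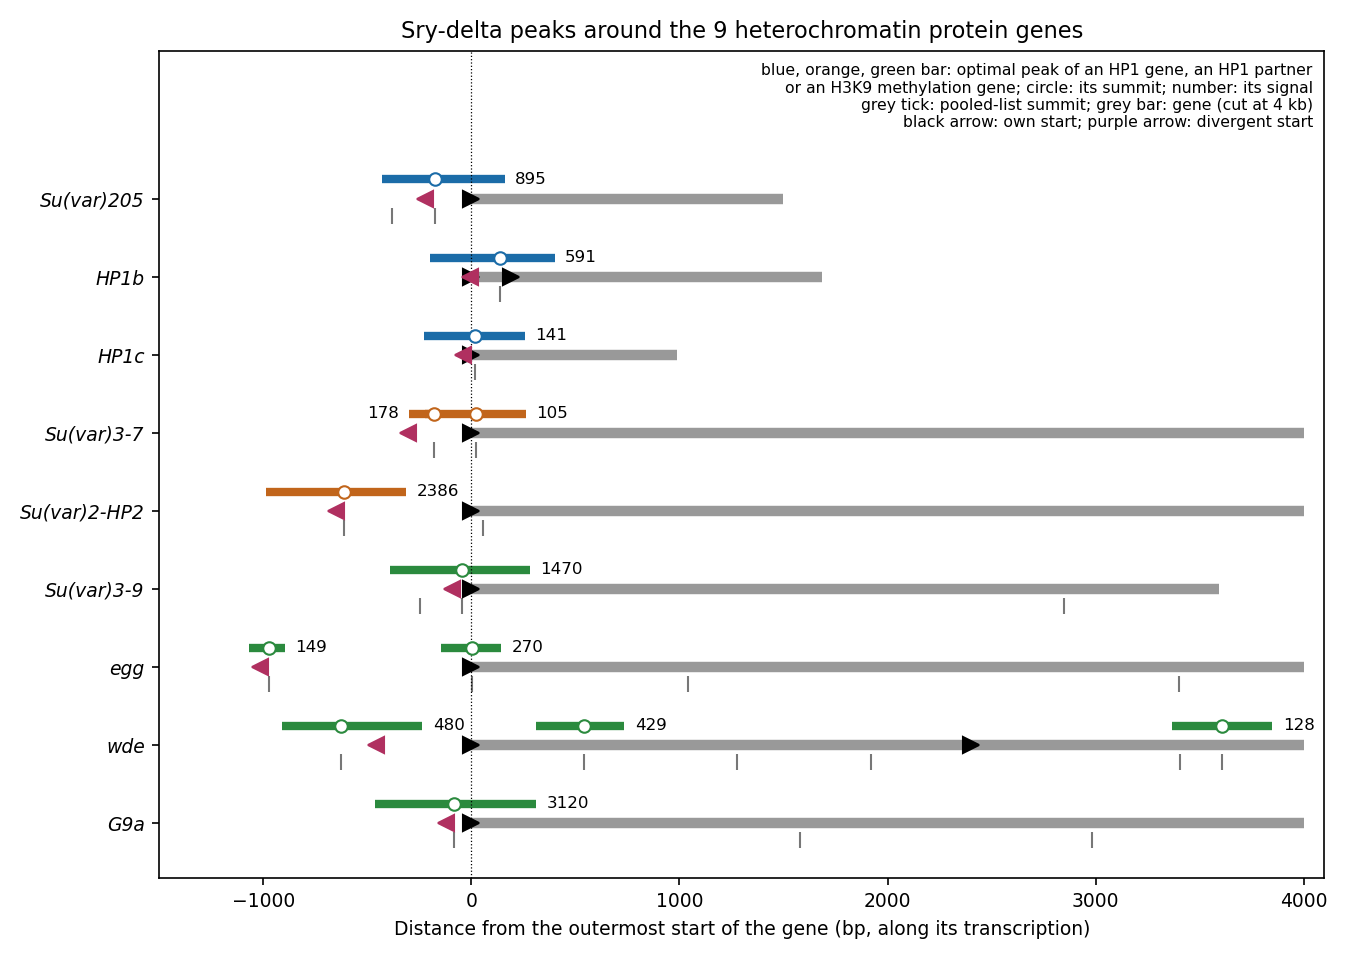
Optimal peaks (bars, with the summit as a circle and the signal as a number) around the outermost start of each gene, by distance in bp along its transcription. Summits of Su(var)2-HP2 (signal 2386) and of the outermost wde peak (480) lie by the divergent start (purple arrow), more than 500 bp from the gene's own start (black arrow), and grey ticks show summits of the pooled list.

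The HP1 partners differed from each other. Su(var)3-7 (FBgn0003598, chromosome 3R, 13264364 to 13270038, plus strand) encodes a zinc finger protein that binds HP1a. It had 2 optimal promoter peaks, which overlapped each other. The first (13264064 to 13264212, summit 13264184) had an optimal signal of 178, rank 4018, and the second (13264142 to 13264625, summit 13264384) a signal of 105, rank 6062. Replicate 4 listed both, with signals of 145 (rank 3237) and 45.3 (rank 8148). Replicate 3 listed 1 peak over both, with its summit at 13264343 and a signal of 55.7 (rank 5249). It also listed a weaker peak that overlapped the second alone (summit 13264547, signal 18.9, rank 15490). The stronger replicate 3 peak was the one matched to both. Its summit lay 151 bp from that of replicate 4 at the first peak, a shift at least matched by 1.85% of the 4769 optimal promoter peaks found in both replicates. The first summit lay 123 bp from the start of Ravus and 180 bp from that of Su(var)3-7, and the second lay 20 bp inside Su(var)3-7.

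Su(var)2-HP2 (FBgn0026427, chromosome 2R, 14607154 to 14618118, minus strand) encodes another protein that binds HP1a. The optimal peak beside it (14618431 to 14619107) had a signal of 1066 in replicate 3, rank 192, and 1329 in replicate 4, rank 189. Its optimal signal was 2386, rank 182, so 2.88% of optimal peaks ranked as high or higher. The summit at 14618730 lay 41 bp from the start of Sec61beta, a subunit of the protein translocation channel, and 612 bp from that of Su(var)2-HP2. The peak interval itself ended 312 bp upstream of Su(var)2-HP2. Within 500 bp of its own start there was a summit of signal 27.7 (rank 9806) in replicate 3 and one of 30.8 (rank 17368) in the pooled list, and none was listed in replicate 4. By the distance rule this high peak belongs to Sec61beta, and the summits of Su(var)2-HP2 itself ranked outside the 6318 peaks of the optimal set.

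Among the genes of H3K9 methylation, G9a and Su(var)3-9 had the highest signals of the 9 genes at their own promoters, egg had a weaker peak, and wde had none within 500 bp. G9a (FBgn0040372, chromosome X, 245978 to 254650, plus strand) encodes a euchromatic H3K9 methyltransferase. Its peak (245516 to 246288) had a signal of 1380 in replicate 3, rank 92, and 1760 in replicate 4, rank 81. The optimal signal was 3120, rank 84, so 1.33% of optimal peaks ranked as high or higher. For reference, the promoter of the Sry-delta gene itself had a signal of 3721, rank 43. The summit at 245895 lay between the divergent starts, 39 bp from CG3038 and 83 bp from G9a.

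Su(var)3-9 (FBgn0263755, chromosome 3R, 15259864 to 15263458, minus strand) encodes the H3K9 methyltransferase of pericentric heterochromatin. In flies it shares its start site with eIF2gamma, a subunit of a translation initiation factor, so a peak there cannot be assigned to either gene by position. The signal (peak 15263176 to 15263849) was 671 in replicate 3, rank 491, and 803 in replicate 4, rank 537. The optimal signal was 1470, rank 506. The summit at 15263503 lay between the divergent starts, 45 bp from Su(var)3-9 and eIF2gamma and 49 bp from Set, which encodes a histone chaperone. A weaker summit (15263705 in replicate 3, 15263703 in the pooled list) in the coding sequence of Set had a signal of 87.2 in replicate 3 and 45.5 in the pooled list, with none listed in replicate 4, as at Su(var)205.

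The gene egg, or eggless (FBgn0086908, chromosome 2R, 24775534 to 24779901, minus strand), encodes the SETDB1 methyltransferase of flies. Its peak (24779759 to 24780046) had a signal of 127 in replicate 3, rank 2647, and 140 in replicate 4, rank 3326. The optimal signal was 270, rank 2845, and the summit at 24779900 lay 1 bp inside the gene. No other coding gene started within 500 bp of that summit, which was so for none of the other promoter summits of the 9 genes. The divergent gene CG3594 starts 1016 bp away and had its own optimal peak (summit 24780874, signal 149, rank 4624), with 81.4 (rank 3839) in replicate 3 and 63.8 (rank 6306) in replicate 4.

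The gene wde, or windei (FBgn0027499, chromosome 2R, 10800420 to 10808938, minus strand), encodes the partner protein of Eggless. It had 3 optimal peaks near or inside it, all more than 500 bp from its start sites at 10806537 and 10808938. The first (10809174 to 10809849, summit 10809566) lay in the 5′ UTR of the divergent gene CG12935, 628 bp upstream of wde, with a signal of 181 in replicate 3, 301 in replicate 4 and 480 in the optimal set (rank 1700). The second (10808203 to 10808627, summit 10808395) lay in a wde intron 543 bp downstream of the outer start. Its signal was 114 in replicate 3, rank 2896, 310 in replicate 4, rank 1586, and 429 in the optimal set, rank 1873. The third (10805088 to 10805571, summit 10805330) lay in a wde coding exon, with 77.8 in replicate 3, 52.1 in replicate 4 and 128 in the optimal set (rank 5230). Near the inner start, weaker summits were listed in each of the other lists, with signals of 52.2 in replicate 3 (456 bp away), 20.9 in replicate 4 (87 bp away) and 57.5 in the pooled list (480 bp away). The wde promoter thus counted as bound in 3 of 4 lists, but through summits at unlike positions.

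In the lists that were not thresholded on reproducibility, more of the 9 genes had a promoter summit, as did more of all genes. It was 9 of 9 in replicate 3, where 58.4% of coding genes had one, and 8 of 9 in replicate 4, where 58.3% did. In the pooled list it was 9 of 9, beside 58.1% of coding genes. Su(var)2-HP2 was the gene without one in replicate 4.

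Over the 7 bound genes the best promoter signal ran from 141 at HP1c to 3120 at G9a, with a median of 591 at HP1b. Over all 5445 bound coding genes the median was 386, with quartiles at 200 and 922. Of the 7 genes, G9a and Su(var)3-9 lay above the upper quartile, Su(var)205 and HP1b between it and the median, egg below the median, and Su(var)3-7 and HP1c below the lower quartile. The genes thus spread over the whole range of bound promoters rather than gathering at one level.

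**Figure D2:**
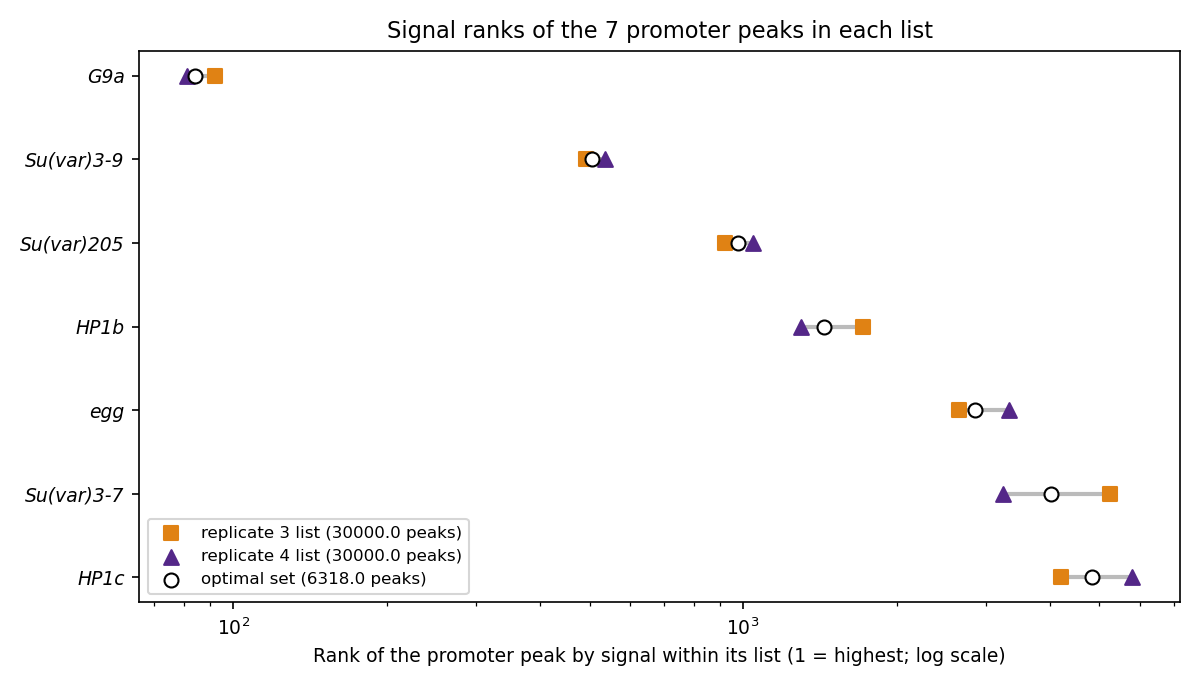
Rank by signal of the highest promoter peak of each of the 7 bound genes in the list of replicate 3 (squares), of replicate 4 (triangles) and in the optimal set (circles), on a log axis on which 1 is the highest. G9a lies at 92 and 81 in the replicates and Su(var)3-9 at 491 and 537, and the markers of Su(var)3-7 lie at 5249 and 3237.

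The ranks of neighbours in this order did not cross between replicates from G9a to egg. At the low end they did. Su(var)3-7 ranked below HP1c in replicate 3 (5249 against 4204) and above it in replicate 4 (3237 against 5805). It ranked above egg in replicate 4 (3237 against 3326) and below it in replicate 3. These replicate 4 ranks are those of the first Su(var)3-7 summit, 151 bp from the only one matched in replicate 3. The second replicate 4 summit, 48 bp from it, ranked 8148, below HP1c and egg. The crossing thus rests on which summit is matched, and 2 replicates did not resolve the order of these last genes.

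Replicate error was read from those optimal peaks, 6296 in all, that overlapped a peak of each replicate. Their log2 ratio of replicate 4 to replicate 3 was 0.48 at the median (SD 0.65). The 13 optimal peaks at the 9 genes had log2 ratios from −0.58 (the wde coding exon) to 1.44 (the wde intron), and 5 of them lay more than 1 SD from that median. These 5 include both Su(var)3-7 peaks, which were set against the same replicate 3 peak and so are not separate. Of all optimal peaks in both lists, 18.4% lay as far out as the second Su(var)3-7 peak (−1.19 SD). For HP1c (−0.8 SD) that share was 33.4%, and the share beyond 1 SD was not computed. After the median over all peaks was subtracted, the ratios of G9a, Su(var)3-9 and Su(var)205 were −0.13, −0.22 and −0.24, all well within 1 SD. The first Su(var)3-7 peak was at 0.90 and the intronic wde peak at 0.96, on the higher side in replicate 4. Summits of G9a, Su(var)3-9 and HP1c moved by 1, 3 and 3 bp between replicates, where the median over all optimal peaks was 18 bp. Those of Su(var)2-HP2 and HP1b moved by 19 bp. The peaks of G9a, Su(var)3-9 and Su(var)205 were thus ranked alike in both replicates. Variation did not follow signal strictly. The intronic wde peak (optimal signal 429) varied more than those of egg (270) and HP1c (141), whose ratios were −0.34 and −0.52 after the median was subtracted.

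**Figure D3:**
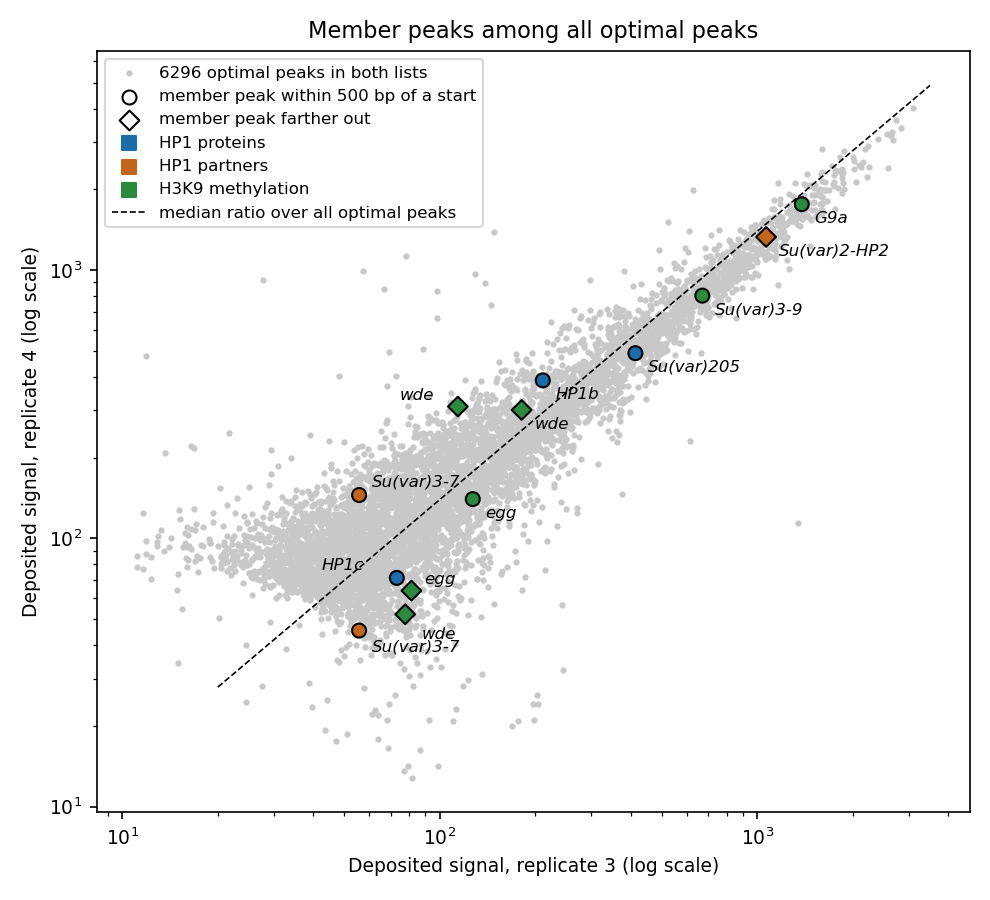
Deposited signal in replicate 3 against replicate 4 on log axes for 6296 optimal peaks (grey) and the 13 peaks at the 9 genes (circles within 500 bp of a start, diamonds farther out, coloured by role). G9a, Su(var)2-HP2, Su(var)3-9 and Su(var)205 lie just under the dashed line of the median ratio, and the intronic wde peak (114 and 310) and the first Su(var)3-7 peak (55.7 and 145) lie above it.

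For each bound gene, the other promoter peak nearest in log2 signal over the 2 replicates was looked up. It was that of Ptip for G9a (signals 1374 and 1766 in replicates 3 and 4), of CG8298 for Su(var)3-9 (667 and 799) and of DCP1 for Su(var)205 (413 and 496). It was that of Clp for HP1b, HemK1 for egg, CG1523 for Su(var)3-7 and sax for HP1c. Their distances ran from 0.005 for HP1c to 0.024 for HP1b on the log2 scale. With 2 samples, such likeness describes signal levels alone.

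In the 8 pairs with starts no more than 1000 bp apart, the distance between the starts ran from 6 bp at HP1b to 653 bp at Su(var)2-HP2. The highest optimal summit of a pair lay nearer to the heterochromatin gene in 3 pairs (HP1b, HP1c and Su(var)3-9) and nearer to its partner in 5 (Su(var)205, Su(var)3-7, Su(var)2-HP2, wde and G9a). In Su(var)3-9 the difference was 45 bp against 49 bp, less than the 18 bp by which a summit typically moved between replicates. In Su(var)2-HP2 it was 612 bp against 41 bp. Where the starts were close, position does not say which of the paired genes a peak serves.

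Inside the genes, more than 500 bp from their own starts, 1 of the 9 genes had an optimal summit, where 6.13% of all coding genes did. This was wde, with the intronic and exonic peaks given above. In the pooled list it was 5 of 9, against 31.9% of coding genes, in replicate 3 it was 4 of 9, against 35.5%, and in replicate 4 it was 5 of 9, against 30.7%. Of the 13 pooled summits inside the 9 genes, 11 ranked below the 6318 peaks that made up the optimal set in number, down to rank 29784. The 9 that lay in Su(var)2-HP2, Su(var)3-9, egg and G9a had signals between 18.3 and 28.5 and −log10 q values between 0.42 and 0.88. Per kb of gene, the optimal set held 0.0435 such summits in the 9 genes (2 summits, both in wde) against 0.0139 over all coding genes, and the pooled list 0.283 against 0.173. Over all coding genes these were 1335 summits in the optimal set and 16651 in the pooled list, so most pooled ones lay outside the optimal set there too. HP1c and Su(var)3-7 had no such summit in any list. The long gene bodies of Su(var)2-HP2 (10965 bp) and G9a (8673 bp) held weak summits alone, whereas that of wde (8519 bp) held the optimal ones. Of the pooled summits inside the 9 genes, those found in both replicate lists were confined to wde. The same share over all coding genes was not computed, so this cannot be called particular to the 9 genes.

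The words in capitals above were counted within 100 bp of each promoter summit, on both strands. CGATA lay there in 6 of the 7 bound genes, all but HP1c, where 60.5% of the 4783 optimal promoter summits held it and 37.1% of the same windows at all coding starts did. The 8 bp DRE, TATCGATA, lay at 1 of the 7, Su(var)3-9, where 18.6% of promoter summits and 6.45% of coding starts held it. Su(var)3-9 had 3 copies, and 0.0836% of promoter summits had 3 or more. ATCGAT, the inner part of the DRE, lay at 3 of the 7 (Su(var)205, Su(var)3-9 and G9a), where 38.1% of promoter summits and 16.4% of coding starts held it. At Su(var)205 it lay 11 bp from the summit. The 3 copies of the DRE at Su(var)3-9 were thus rare among promoter summits. Counted likewise, 3 or more copies of ATCGAT, which Su(var)3-9 also had, lay at 2.3% of them. Counted as at least 1 copy, the DRE lay at 18.6% of them, ATCGAT at 38.1% and CGATA at 60.5%.

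The published Sry-delta consensus, with up to 2 mismatches, was not found at any of the 7 genes' promoter summits, and 7.55% of all optimal promoter summits and 3.52% of coding starts held it. Of the core promoter motifs of flies, Motif 1 (up to 1 mismatch) lay at HP1c, in 2 copies, and at the second summit of Su(var)3-7, where 17.8% of promoter summits and 8.92% of coding starts held it. HP1c, the gene without CGATA, thus had Motif 1, 10 bp from its summit. Motif 7 lay at G9a in 2 copies, where 15.8% of promoter summits and 6.8% of coding starts held it and 1.3% of summits held 2 or more. Motif 6 (up to 1 mismatch) lay at none, where 12.4% of promoter summits and 8.69% of coding starts held it. At the peaks more than 500 bp from a start, CGATA lay at the Sec61beta peak beside Su(var)2-HP2 (3 copies), at the exonic wde peak (4 copies) and at the CG3594 peak beside egg (1 copy). ATCGAT lay at the exonic wde peak, and Motif 7 at the CG3594 peak and at the CG12935 peak beside wde. None of the motifs lay at the intronic wde peak.

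The GC content of the 201 bp around the summits spread widely. It was 29.9% at Su(var)205, a value at or above that of 7.19% of promoter summits, and 30.3% at the first Su(var)3-7 summit. It was 49.3% at Su(var)3-9, at or above 93.3% of them, and 41.8% at G9a. The median over all promoter summits was 38.3%, with quartiles at 34.3% and 43.3%, so these promoters share no base composition.

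Related chromatin genes were read the same way from lists of 41 genes, chosen like the 9 genes with earlier results of these data known. Of these, 31 had an optimal promoter peak (75.6%, median best signal 500), beside 7 of the 9 genes (77.8%, median 591) and 39.0% of all coding genes. Starts no more than 1000 bp from a divergent coding start were found for 25 of the 41, against 36.2% of coding genes. Among all coding genes with such a start, 68.9% had an optimal promoter peak, and among the others 22.1% did.

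Among 22 other heterochromatin factors, 19 had a promoter peak. The highest were at Hmt4-20, the H4K20 methyltransferase (signal 3742, rank 41), Lhr, a hybrid incompatibility protein that binds HP1a (3007, rank 101), and E(var)3-9 (1990, rank 277). The satellite-binding protein gene D1 had a signal of 1375, rank 566. The lowest were at ADD1 (144) and Set8, the H4K20 monomethyltransferase (141), and HDAC1, ova and Mt2 had none.

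None of the remaining HP1 family genes rhi, HP1e and HP6 had an optimal promoter peak, where 39.0% of coding genes did. They encode germline or recently evolved HP1 relatives. None had a divergent coding start within 1000 bp, and of coding genes without one 22.1% had an optimal promoter peak. With a 1000 bp window for the summit, 1 of these HP1 family genes had one, beside 42.0% of coding genes. In the pooled list rhi and HP6 had a promoter summit and HP1e had none. With 3 genes on each side this is a description of these 6 genes.

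Of the H3K9 demethylase genes, Kdm3 had the highest signal of all the listed genes (5760, rank 6), Kdm4B a low one (152, rank 4558), and Kdm4A had no promoter summit in any list. Genes of nuclear piRNA silencing, which directs H3K9 methylation to transposons, were bound at arx (823), Panx (724) and nxf2 (190), and not at piwi or mael. Of 8 methyltransferases of other histone sites, 7 were bound, from E(z) (103, rank 6165) to trr (666, rank 1296), and Set1 was not.

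**Figure D4:**
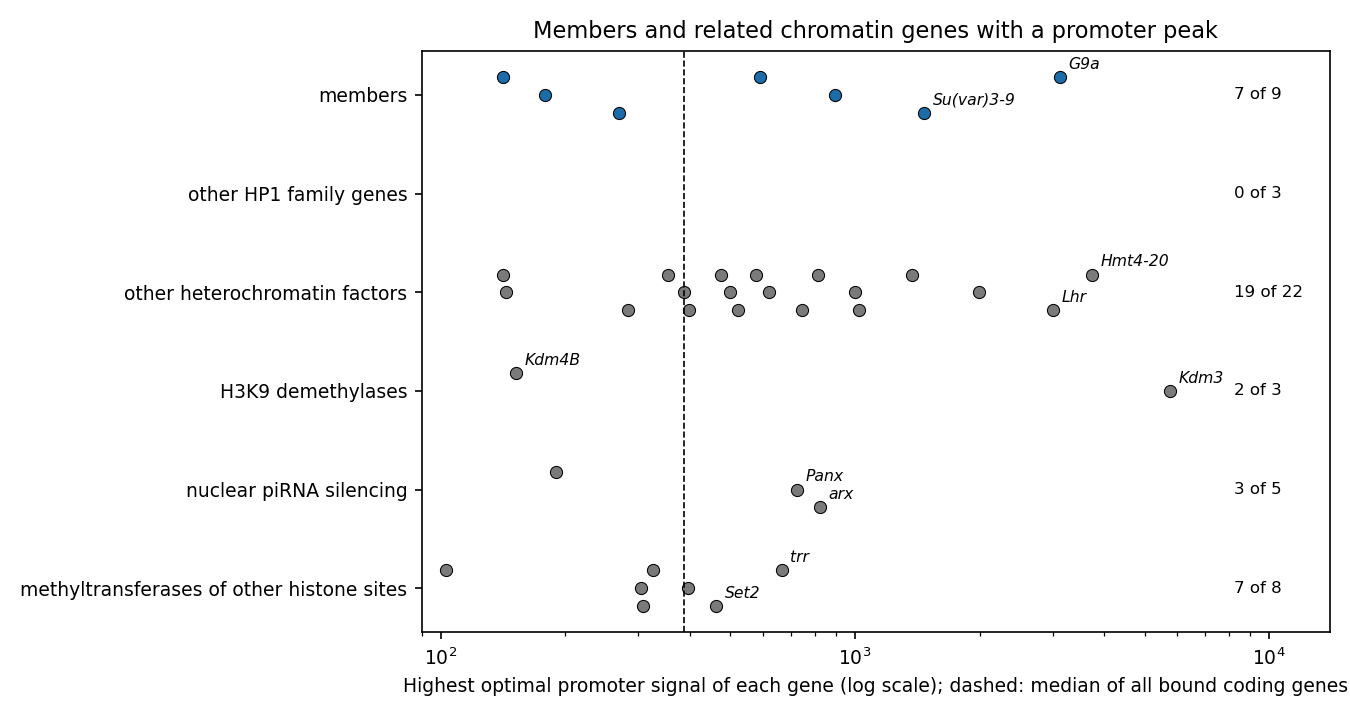
Highest optimal promoter signal of each bound gene on a log axis, for the 9 heterochromatin protein genes (blue) and 5 lists of related genes (grey), with the number bound at the right. Signals in each list with several bound genes lie on both sides of the dashed median of all bound coding genes (386), and the other HP1 family genes have no point.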

How the data were processed

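Peak lists in build dm6 were used for replicate 3, replicate 4, both pooled, and an optimal set. The README texts deposited beside each sample state that the replicate and pooled lists were called against a control and the optimal set was derived from them by irreproducible discovery rate (IDR). Not given in the sources used here were the aligner, the peak caller and the threshold on IDR. Chromatin was sheared to 200 to 800 bp per the labels, and the control library was not analysed here. Each deposited peak carries the authors' signal, on 1 scale per list, and the authors' −log10 q value. The 3 larger lists hold 30000 peaks each, so their length was capped and their lowest peaks are weak. No counts were in the lists, so the depth is unknown.

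Summits were set against start sites of Ensembl release 115 (FlyBase 6.54) and sequence was read from the Release 6 genome. No test was made, since there is 1 group. Signals were used only to rank and describe peaks within a list. A peak was matched to a replicate peak by an overlap of 1 bp or more, taking the peak with the nearest summit. Motif letters came from published descriptions, entered by hand, and Su(var)3-6 was looked up as Pp1-87B, the symbol updated in 1 case. Intervals are exact Clopper-Pearson 95% intervals. Genes named beyond the 9 are those starting near their summits, the listed related genes, the nearest promoter peaks in replicate signal, and Sry-delta. The members and lists were chosen with earlier results of these data known. Alternatives were the window, the start used, overlap in place of the summit, a stricter optimal set, single replicates, and motif settings. Scripts were checked on simulated data, with Python 3.11.15, pandas 2.3.3, numpy 2.4.6, scipy 1.17.1 and matplotlib 3.10.9.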

Additional observations from a re-analysis of the deposited data

How the results depend on the processing

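Of 58 alternative values, 53 stayed within a set limit of the main value and 5 did not. For a count the limit was 1.5 times the main value, and for the replicate ratio it was the SD over all peaks. For a rank it was the SD of the median ranks in the 2 replicates, which are themselves among the alternatives. The median log2 replicate ratio of the 7 bound genes changed sign, from −0.22 to 0.26, when the median over all peaks was not subtracted. With a 1000 bp window, 1 of the other HP1 family genes had an optimal promoter peak, against 0. With the upper 50% of the optimal peaks by signal, 1 H3K9 demethylase gene was bound, against 2. When pooled summits inside genes had to be found in both replicate lists, 1 of the 9 genes had one, against 5, with no share over all coding genes computed. With up to 3 mismatches, the Sry-delta consensus lay at 2 of the 7 bound genes (egg and G9a), where 27.5% of promoter summits held it. Within 50 bp, Motif 7 lay at 0, against 1, of the 7 genes. The 7 bound genes became 9 with a 1000 bp window (42.0% of coding genes) or with any overlap of peak and window (40.6%), 5 with those upper 50% (26.5% of coding genes), which leaves out HP1c and Su(var)3-7, and 5 when each summit counted only for its nearest coding start (30.2%), a setting added after the data were seen, which leaves out Su(var)205 and G9a. For single replicates, the 6318 highest peaks of the remaining list were used. The count was then 7 without replicate 3 (38.6% of coding genes) and 8, with wde added, without replicate 4 (38.5%). No paired analysis was possible because the samples form 1 group. Depth is unknown, and 2 replicates limit every ordering of close ranks.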
